A study of Mus musculus with 2 samples.

Results

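The genes described here are 10 regulators of red cell formation: Gata1, Tal1, Lmo2, Ldb1, Zfpm1, Gfi1b, Bcl11a, Klf1 and Rb1, which encode nuclear regulators, and Epor, which encodes the erythropoietin receptor. They were chosen by name, and every probe set whose platform annotation names 1 of them and no other gene was taken. This gave 18 probe sets of the 34945 that name 1 gene; 7 of the 10 genes had a single probe set, Zfpm1 and Rb1 had 2 each and Bcl11a had 7. The study hybridised RNA from fetal liver macrophages of C57BL/6J mouse embryos at E15.5 (days of embryonic development) to 1 Affymetrix array from c-Maf+/+ (wild type) and 1 from c-Maf-/- (c-Maf KO) embryos, and asked which genes are lower without c-Maf, the basic leucine zipper transcription factor encoded by Maf. Macrophages were sorted as cells stained for both Mac-1 and F4/80. The labels do not describe the deletion as confined to macrophages and do not say how many embryos were pooled. With 1 array for each genotype there is no replicate, so no test or standard error was possible and every value describes these 2 arrays.

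Red cell precursors mature in the fetal liver on erythroblastic islands, clusters of erythroblasts around a central macrophage. In erythroblasts GATA1, a zinc finger protein, and TAL1, a basic helix-loop-helix protein, are bridged on DNA by the adaptor proteins LMO2 and LDB1, and this complex acts with the cofactor FOG1 (encoded by Zfpm1) and with KLF1 on globin, heme and membrane genes. The same factors are also used in megakaryocytes, mast cells and progenitors. Erythropoietin, acting through its receptor and the kinase JAK2, keeps erythroid progenitors alive.

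The regulators bind short DNA letters, so the promoters of some members are shown as examples, not including Bcl11a and Zfpm1. They are those of Klf1, which had the highest ratio of the members, of the receptor gene Epor, and of Gata1 and Tal1, the DNA-binding pair of the erythroid complex. Each sequence runs from 250 bases before to 50 bases after an annotated start, 300 bases in all, from RefSeq on GRCm38.p6. Capitals mark matches to a GATA motif (AGATAA or AGATAG or TGATAA or TGATAG) and to CCNCNCCC, a motif of the KLF kind, on either strand. The stretches are Klf1 at chr8:84901732-84902031 (plus strand), Epor at chr9:21963527-21963826 (minus strand), Gata1 at chrX:7967861-7968160 (minus strand) and the first of 2 Tal1 starts at chr4:115056176-115056475 (plus strand).
Klf1: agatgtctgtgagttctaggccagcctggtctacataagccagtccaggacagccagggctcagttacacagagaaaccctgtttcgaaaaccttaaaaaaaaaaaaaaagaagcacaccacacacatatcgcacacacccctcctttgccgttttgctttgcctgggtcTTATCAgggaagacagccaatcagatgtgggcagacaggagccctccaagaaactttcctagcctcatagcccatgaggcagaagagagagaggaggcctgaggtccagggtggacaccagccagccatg
Epor: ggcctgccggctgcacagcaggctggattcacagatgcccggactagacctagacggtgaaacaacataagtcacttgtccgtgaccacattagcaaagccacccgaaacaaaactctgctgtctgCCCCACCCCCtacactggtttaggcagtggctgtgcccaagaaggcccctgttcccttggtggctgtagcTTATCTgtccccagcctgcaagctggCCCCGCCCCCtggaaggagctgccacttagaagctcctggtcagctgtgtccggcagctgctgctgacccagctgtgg
Gata1: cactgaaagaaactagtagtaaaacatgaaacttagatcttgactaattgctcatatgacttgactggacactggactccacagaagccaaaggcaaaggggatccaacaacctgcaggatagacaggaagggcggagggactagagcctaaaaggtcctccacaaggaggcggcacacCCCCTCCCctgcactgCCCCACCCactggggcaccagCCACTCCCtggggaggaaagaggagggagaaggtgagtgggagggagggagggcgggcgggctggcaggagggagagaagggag
Tal1: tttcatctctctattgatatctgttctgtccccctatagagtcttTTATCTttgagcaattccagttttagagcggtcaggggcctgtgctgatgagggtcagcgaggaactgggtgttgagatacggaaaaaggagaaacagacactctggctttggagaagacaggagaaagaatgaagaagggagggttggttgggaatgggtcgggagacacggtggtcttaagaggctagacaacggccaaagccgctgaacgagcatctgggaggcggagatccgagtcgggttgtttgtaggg

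In these windows the Klf1 promoter held 1 GATA match, which began 80 bases before the start, and 0 CCNCNCCC matches. The Epor promoter held 1 GATA match, 54 bases before the start, and 4 CCNCNCCC matches in overlapping pairs. The Gata1 window held 3 CCNCNCCC matches and 0 GATA matches, and the Tal1 window 1 GATA match, 205 bases before the start. Of the 10 genes, 8 had a promoter in the table used, with 11 windows in all. A GATA match lay in 5 of the 11, against 29.8% of all 32851 promoters, and CCNCNCCC in 9 of the 11, against 49.5%. The letters TGCTGA, which form one arm of the Maf recognition element, lay on either strand in 5 of the 11 windows (Epor, Zfpm1, both Tal1 starts and 1 of 3 Ldb1 starts), against 19.5% of all promoters, and CANNTG, the E-box letters of helix-loop-helix proteins, in 7 of the 11, against 72.3%. Matches to different motifs did not overlap in these windows. A match is only a match of letters, and no binding was measured.

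Beside the members, the arrays as a whole set the scale. The deposited values are linear intensities with a median over all probe sets of 4.73 on the wild-type and 2.98 on the knockout array, and no common level. A floor was set at the 50th percentile of the pooled values, 3.70 as deposited and 3.75 after quantile normalization; a probe set below it on 1 array has only a bound for its ratio, written as at least N-fold. For the 14414 probe sets above the floor on each array, knockout over wild type had a median log2 ratio of -0.87 as deposited. Ratios are therefore given as deposited and as level-adjusted, which means after quantile normalization; a level-adjusted ratio above 0 means higher than the overall shift, not brighter on the knockout array. Maf itself was lower, with its brightest probe set at 47.6 in wild type and 0.219 in knockout, at least 8.51-fold lower level-adjusted (12.9-fold or more as deposited), although 4 dimmer Maf probe sets lay at most at 5.50 in wild type and give little information; whether its probes lie in the deleted part is not known here. Actb probes at the 3' end were 13.3 times as bright as those at the 5' end on the wild-type array and 6.05 times on the knockout array, so ratios can depend on where probes lie; its part in the ratios below was not tested. Adgre1, which encodes F4/80, had signals of 71.4 and 48.1, and Itgam, which encodes a chain of Mac-1, lay near the floor on both arrays with 5.76 and 3.94.

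Of the 18 member probe sets, 16 reached the floor on 1 or both arrays, and these covered all 10 genes. Level-adjusted, 2 of the 16 were at least 2-fold higher in knockout, 3 were at least 2-fold lower and 11 lay within 2-fold. Over all 22608 probe sets that passed the same filter, 8.71% were higher and 8.82% lower by that much. The median of the 16 was 0.25 on the log2 scale, and that of all probe sets 0.02. As deposited, 0 of 16 were at least 2-fold higher and 5 at least 2-fold lower, against 1.27% and 36.6% of all probe sets, and the medians were -0.92 and -0.72. Counts this small do not set the group apart from the other probe sets. The 3 lower probe sets all belonged to Bcl11a, and the 2 higher to Klf1 and Zfpm1.

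**Figure D1:**
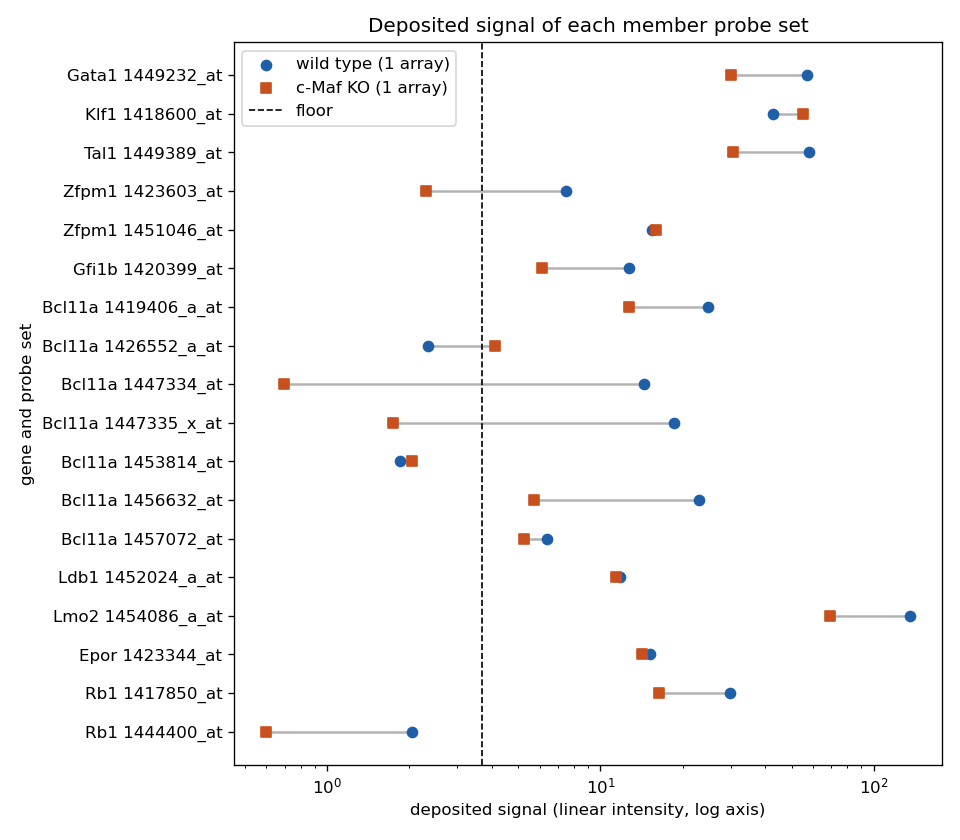
Deposited signal (linear intensity on a log axis) of the 18 probe sets of the 10 genes, with a circle for the wild-type array, a square for the c-Maf KO array and the floor of 3.70 as a dashed line. Klf1 went from 42.9 to 55.1, Gata1, Tal1 and Lmo2 were all dimmer on the knockout array, and 2 Bcl11a probe sets fell below the floor in knockout only.

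The DNA-binding core of the erythroid complex followed the overall shift. Gata1, the master zinc finger factor of red cells and megakaryocytes, was measured at 56.9 on the wild-type array and at 30.1 on the knockout array, a log2 ratio of -0.92 as deposited and 0.25 level-adjusted. Tal1, its helix-loop-helix partner, had 57.8 and 30.6, again -0.92 as deposited and 0.25 level-adjusted. Both were dimmer on the knockout array by nearly the same factor as the median probe set.

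Lmo2, the LIM-only adaptor that joins both factors, had 135 in wild type and 69.1 in knockout (-0.97 as deposited, 0.23 level-adjusted). Rb1, the retinoblastoma protein, restrains cell cycle entry and is needed for terminal erythroid maturation. Its brighter probe set had 29.8 and 16.4 (-0.86 as deposited, 0.24 level-adjusted), and its other probe set was below the floor on both arrays with 2.05 and 0.599. The 4 genes Gata1, Tal1, Lmo2 and Rb1 thus spanned only 0.23 to 0.25 level-adjusted, although their wild-type signals differed widely. Their range of deposited ratios held 5.73% of all probe sets above the floor on both arrays, and it was singled out after the values were seen.

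Ldb1, which encodes the dimerising adaptor that brings complexes on distant sites together, kept its signal, with 11.8 in wild type and 11.4 in knockout (-0.05 as deposited, 0.92 level-adjusted). Klf1, a Kruppel-like factor that activates adult globin and many other erythroid genes, was brighter on the knockout array: 42.9 in wild type and 55.1 in knockout (0.36 as deposited, 1.53 level-adjusted, 2.88-fold higher). Of all probe sets above the floor on both arrays, 4.91% had a deposited ratio at or above that of Klf1.

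Epor, the receptor whose signal erythroid progenitors need to survive, had 15.2 in wild type and 14.2 in knockout (-0.10 as deposited, 0.93 level-adjusted), just short of 2-fold level-adjusted. Ldb1 and Epor were thus nearly as bright on both arrays, unlike most probe sets. Zfpm1, whose product FOG1 binds GATA1, had a probe set of 15.45 in wild type and 16.0 in knockout (0.05 as deposited, 1.09 level-adjusted, 2.12-fold higher). The second Zfpm1 probe set, which the annotation ties to the same sequence record, went the other way, from 7.50 to 2.31 and so below the floor in knockout (at least 1.54-fold lower level-adjusted). The span of 1.71 between the 2 means that no direction can be given for Zfpm1.

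The only yardstick for error on these arrays is the spread between probe sets of the same gene. Its SD was 0.69 log2 units over 3861 level-adjusted probe sets of 1592 genes, or 0.98 for a difference between 2 probe sets, and it holds no variation from embryo to embryo or from sort to sort. Klf1 stood above Gata1 by 1.27, more than that SD of a difference. Klf1 is the member with the highest ratio, so this contrast was singled out by the same values. The lowest of Klf1, Epor, Ldb1 and the brighter Zfpm1 probe set lay only 0.66 above the highest of Gata1, Tal1, Lmo2 and Rb1, less than that SD. Apart from Klf1 and Zfpm1, the other genes with a single informative probe set (Gata1, Tal1, Lmo2, Rb1, Ldb1, Epor and Gfi1b) lay within 2-fold.

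Because the overall shift was larger in bright probe sets, members were also set against the probe sets of like signal, in 20 bins of equal number. Only probe sets above the floor on both arrays were used. This filter bounds the ratios in the dimmest bins, and so also the shift seen there. Klf1 lay at percentile 98.1 of deposited ratios in its bin, Zfpm1 (brighter probe set) at 92.8, Epor at 90.6 and Ldb1 at 88.3. Gata1 lay at percentile 62.8, Tal1 at 62.7, Lmo2 at 62.1 and Rb1 at 61.4. Of the 12 member probe sets above the floor on both arrays, 3 lay above the 90th percentile, Epor only just. A further 1 lay below the 10th, and the other 8 between them. By construction 20% of all probe sets in the bins lie outside these limits. These percentiles describe the 2 arrays and carry no error.

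**Figure D2:**
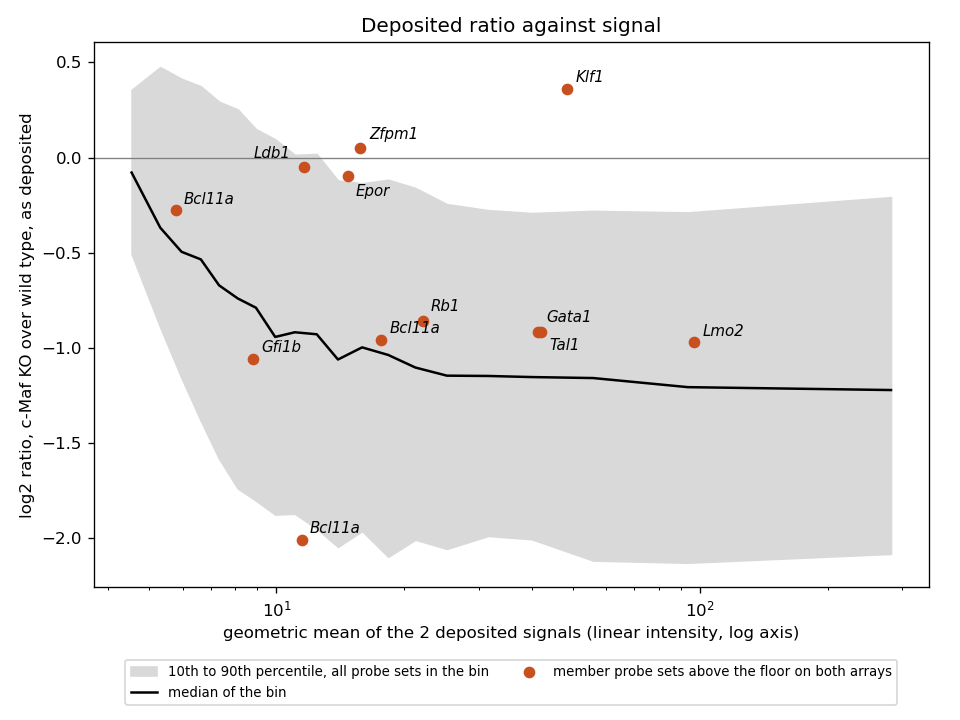
Deposited log2 ratio of c-Maf KO over wild type against the geometric mean of the 2 deposited signals (log axis) for the 12 member probe sets above the floor on both arrays; the line is the median and the grey band the 10th to 90th percentile of all probe sets in 20 signal bins. Klf1 lies above the band at a ratio of 0.36, Gata1, Tal1, Lmo2 and Rb1 lie between -0.97 and -0.86, a little above the line, and 1 Bcl11a probe set lies below the band at -2.01.

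Among the repressors, Gfi1b, a zinc finger repressor that limits expansion of erythroid and megakaryocytic cells, had 12.7 in wild type and 6.09 in knockout (-1.06 as deposited, -0.19 level-adjusted). It was the only member gene whose brightest probe set was below 0 level-adjusted, and at percentile 36.5 of its signal bin it lay well inside the bulk of probe sets.

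Bcl11a, a zinc finger repressor best known for silencing embryonic and fetal-type globin genes and also required in B cell progenitors, gave probe sets that disagreed. Its brightest probe set (1419406_a_at) had 24.7 in wild type and 12.7 in knockout, 0.10 level-adjusted, so it followed the overall shift. Probe set 1456632_at went from 23.0 to 5.71 (-2.01 as deposited, -1.07 level-adjusted) and lay at percentile 6.81 of its bin. Probe sets 1447334_at and 1447335_x_at, which the annotation ties to 1 shared sequence record and which are thus not independent, went from 14.4 to 0.695 and from 18.6 to 1.74. Both were below the floor in knockout, at least 2.77-fold and at least 3.49-fold lower level-adjusted. On these 2 arrays these 3 were dimmer in knockout beyond the overall shift, whereas the brightest was not.

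The remaining Bcl11a probe sets were dim. Probe set 1457072_at had 6.37 and 5.25 (0.47 level-adjusted), 1426552_a_at had 2.33 and 4.10, with only the knockout above the floor (at least 1.41-fold higher), and 1453814_at was below the floor on both arrays with 1.85 and 2.04. The 6 Bcl11a probe sets that passed the floor spanned 2.30 log2 units, and the values at both ends are bounds. Bcl11a is known to give several transcript isoforms, and which of them each probe set reads was not examined. All 3 lower calls came from Bcl11a, so without it the other 10 probe sets had 0 lower and 2 higher level-adjusted, beside 8.82% and 8.71% of all probe sets; 1 of the 2 was the brighter Zfpm1 probe set.

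Markers of some other cells moved on the same arrays. Level-adjusted, 8.82% of all probe sets were at least 2-fold lower and 8.71% higher, which is the share to set beside these counts. Of 19 stem and progenitor probe sets above the floor, 8 were at least 2-fold lower and 0 higher, with a median of -0.84. Summed signals, here and below, take all probe sets of a list, also those below the floor. For this list the deposited sum went from 872 to 168 (598 to 239 level-adjusted). Of the 8, 3 were Myb probe sets. Among the fewer probe sets left without suffixed ones, 2 were lower and the median was -0.16. Myb, a progenitor factor, went from 381 to 43.5 (-1.99 level-adjusted), Flt3, a receptor of lymphoid and myeloid progenitors, from 19.5 to 1.44 (at least 3.65-fold lower), Prom1 from 58.4 to 8.54 (-1.70) and Kit, the stem cell factor receptor, from 16.9 to 3.29 (-1.52). Of 11 B lymphoid probe sets above the floor 1 was at least 2-fold lower and 0 higher, with a median of 0.08 and list sums of 98.8 (wild type) and 50.5 (knockout) (74.5 and 66.1 level-adjusted). The one was Igll1, a surrogate light chain of the pre-B cell receptor (20.5 to 4.57, -1.27), and Rag1 and Rag2 were below the floor on both arrays. Vpreb1, its partner chain, went from 9.67 to 0.173 (at least 1.95-fold lower), Cd79a from 8.63 to 1.06 (at least 1.75-fold) and Cd79b from 9.42 to 7.52 (0.54). Pax5, named after its values were seen, had floored ratios of 0.95 and -0.40. The B lymphoid median of 0.08 was close to the 0.02 of all probe sets. The part of these cells in the Bcl11a signals was not tested. In sorted bulk RNA, fewer cells of a type and less RNA per cell cannot be told apart.

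Products of erythroblasts, the cells in which most members act, were present on both arrays. Of 36 such genes with probe sets, 33 were above the floor, and Hba-a1, Car1 and Xk were not; the label is that of sorted macrophages, so the members' signals cannot be assigned to macrophages alone. Of 63 probe sets above the floor, 7 were at least 2-fold higher and 4 at least 2-fold lower, with a median of 0.32, against 8.71%, 8.82% and 0.02 for all probe sets. The balance of these calls turned with the scaling: as deposited 1 was higher and 20 lower, with a median of -0.68, and with equal medians 2 were higher and 7 lower, with a median of -0.03. Of all probe sets, 1.27% were higher and 36.6% lower as deposited, and 5.03% and 14.9% with equal medians. Over all probe sets of the erythroblast list, signals summed to 19652 (wild type) and 12240 (knockout) as deposited, and 18936 and 14622 level-adjusted. Rhag, the Rh-associated membrane protein, kept its signal (88.0 to 81.2, 1.06 level-adjusted), as did Uros, a heme synthesis enzyme (38.9 to 38.8, 1.15), although a second Uros probe set was at -0.82. Rhd, the Rh blood group protein, was lower (29.0 to 6.04, -1.30), and the 2 probe sets of the globin gene Hbb-b2, which shares sequence with other beta-like globins, went opposite ways (-1.64 and 1.20). The part of erythroblast RNA in the members' signals was not tested.

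On the same arrays 19 of 25 hepatoblast probe sets above the floor were at least 2-fold higher and 0 lower, with a median of 1.59. Of all probe sets, 8.71% were higher and 8.82% lower. The summed signal of the hepatoblast list went from 592 to 938 as deposited and from 409 to 1393 level-adjusted. Alb, encoding albumin, went from 63.8 to 136 (2.27), Apoa1 from 6.69 to 22.2 (2.67), Serpina1b from 8.62 to 23.1 (2.38) and Ttr from 42.0 to 77.8 (2.06). Macrophage markers had 15 of 42 probe sets at least 2-fold higher and 2 lower, with a median of 0.65 and summed signals of 3021 and 2016 as deposited and 2060 and 2959 level-adjusted. As deposited the balance turned, with 3 higher, 11 lower and a median of -0.36, while hepatoblast markers had 8 higher, 0 lower and a median of 0.70. Of all probe sets, 1.27% were higher and 36.6% lower as deposited. Without suffixed probe sets few hepatoblast probe sets remained, and all of them were at least 2-fold higher (4 higher, 0 lower), with a median of 1.90. Among the macrophage markers, Spic (6.94 to 22.3, 2.63), Hmox1, which degrades heme (19.5 to 49.2, 2.42), and C1qa (16.3 to 30.2, 1.97) were higher. Vcam1, the adhesion molecule of erythroblastic islands (24.4 to 3.90, -1.76), was lower. Whether these cell types take part in the ratios of Klf1, Epor, Ldb1 and Zfpm1 was not tested.

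Megakaryocytes, which share Gata1, Tal1, Zfpm1 and Gfi1b with red cells, gave 1 of 16 marker probe sets at least 2-fold higher and 1 lower, with a median of 0.20 and summed signals of 291 and 174 (205 and 251 level-adjusted). Of all probe sets, 8.71% were higher and 8.82% lower level-adjusted. The glycoprotein gene Gp9 went from 15.3 to 0.268 (at least 2.93-fold lower) and Vwf from 2.24 to 7.16 (at least 2.62-fold higher), while Itga2b (22.9 to 20.7, 0.95) and Ppbp (15.3 to 14.6, 0.96) lay within 2-fold. Mast cell, basophil and eosinophil markers had 3 of 15 probe sets at least 2-fold lower and 0 higher, a median of -0.18 and summed signals of 443 and 142 (305 and 205 level-adjusted). Among the fewer probe sets left without suffixed ones, 1 was lower and the median was 0.26. The largest ratios were those of Hdc, histidine decarboxylase (190 to 35.7, -1.23), Ms4a2 (10.2 to 0.234, at least 2.04-fold lower), Tpsb2 (9.92 to 0.661, at least 1.99-fold) and Prg3 (9.80 to 1.05, at least 1.97-fold), by the brightest probe set of each gene, while Mcpt8 (0.85) and Il5ra (0.69), named after their values were seen, went the other way. Neutrophil markers were bright on both arrays (summed 15204 and 8775 as deposited, 12397 and 10749 level-adjusted), with 3 of 14 lower, 0 higher and a median of -0.20; Camp (1239 to 207, -1.62), Mpo (1676 to 427, -1.19), Csf3r (35.7 to 8.06, -1.11) and Ltf (146 to 35.4, -0.86) had the largest ratios, while Lcn2 (0.76) and Mmp8 (0.65), named after their values were seen, went the other way. As deposited, the probe sets at least 2-fold lower numbered 4 of 16 for megakaryocytes, 8 of 15 for mast cells, basophils and eosinophils and 8 of 14 for neutrophils, with 0 higher in each, beside 36.6% lower over all probe sets. No marker probe set was listed at 0, since the lowest signal on either array was 0.0203.

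Proteins that work with GATA1 and TAL1 were mostly within 2-fold. Of 87 probe sets of 34 such genes, 12 were at least 2-fold higher and 7 at least 2-fold lower, with a median of -0.19. The shares over all probe sets were 8.71% and 8.82%. Crebbp, a histone acetyltransferase that acetylates GATA1, went from 20.9 to 3.48 (-1.72) and Mbd3, a subunit of the NuRD repressor complex that FOG1 recruits, from 13.6 to 2.96 (at least 2.64-fold lower). Ldb2, the paralog of Ldb1, went from 7.47 to 12.95 (1.71), and Erg, an ETS factor of stem cells and endothelium, from 4.99 to 7.54 (1.40). In deposited signal 49 of 89 probe sets of this list were at least 2-fold lower and 0 higher, with a median of -1.10. The deposited shares over all probe sets were 36.6% and 1.27%.

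Other erythroid transcription factors had 8 of 39 probe sets at least 2-fold lower and 3 higher, with a median of -0.09. The shares over all probe sets were 8.82% and 8.71%. Myb had 3 probe sets between -1.99 and -1.39. Klf3 gave no common direction, as its 5 probe sets had floored ratios from -1.99 to 1.53; it is named after its values were seen. Klf10, a TGF-beta-inducible repressor, went from 20.2 to 4.83 (-1.17), and Klf13 from 70.6 to 12.6 (-1.37), although its second probe set was at 0.61. Hhex went from 25.8 to 22.4 (0.90). As deposited, 19 of 39 were at least 2-fold lower and 1 higher, with a median of -0.98, beside 36.6% and 1.27% of all probe sets.

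For signalling below the erythropoietin receptor, level-adjusted calls went both ways. Of 62 probe sets of 28 genes, 8 were at least 2-fold higher and 7 lower, with a median of 0.05, close to the 0.02 of all probe sets. The shares over all probe sets were 8.71% and 8.82%. Jak2, the kinase bound to the receptor, followed the overall shift (43.0 to 21.2, 0.13), with a second, dim probe set at 6.31 and 2.64 (at least 1.32-fold lower). Stat5a, which the kinase activates, had 15.2 and 5.90 (-0.47), and its other probe set was below the level-adjusted floor on both arrays. Stat5b had 15.0 and 3.59 (-1.24), but a dim probe set was at 0.06. Grb2, an adaptor to the Ras pathway, went from 72.3 to 15.3 (-1.10), with another probe set at 0.42. Socs3, a feedback inhibitor of the receptor, went from 11.0 to 13.2 (1.23), with its 3 probe sets between -0.15 and 1.67.  Epo was not analysed here. As deposited, 25 of 63 probe sets were at least 2-fold lower and 2 higher, with a median of -0.84, beside 36.6% and 1.27% of all probe sets and their median of -0.72.

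Around Rb1, the pocket proteins, E2F factors and cell cycle inhibitors had 4 of 62 probe sets at least 2-fold higher and 4 lower, with a median of 0.18 (-0.76 as deposited, with 1 of 64 higher and 24 lower). Of all probe sets, 8.71% were higher and 8.82% lower level-adjusted, and 1.27% and 36.6% as deposited. E2f8 went from 183 to 22.3 (-1.88), with another probe set at -0.41, and E2f7, its close relative, from 40.7 to 6.33 (-1.69); both are repressors of E2F target genes. The inhibitors of cyclin-dependent kinases p21 and p27 went opposite ways, Cdkn1a from 11.9 to 20.2 (1.77) and Cdkn1b from 51.3 to 8.66 (-1.49). Paralogs of the members had 4 of 25 probe sets lower and 3 higher, with a median of -0.31 (-1.17 as deposited, with 14 of 26 lower and 1 higher). By the brightest probe set of each gene, the largest ratios there beside Ldb2 were those of Klf4 (87.0 to 16.1, -1.29), Csf3r (-1.11) and Lmo4 (13.0 to 4.10, -0.85), a LIM-only relative of Lmo2, while Gata3, Tal2 and Zfpm2 were below the floor on both arrays.

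**Figure D3:**
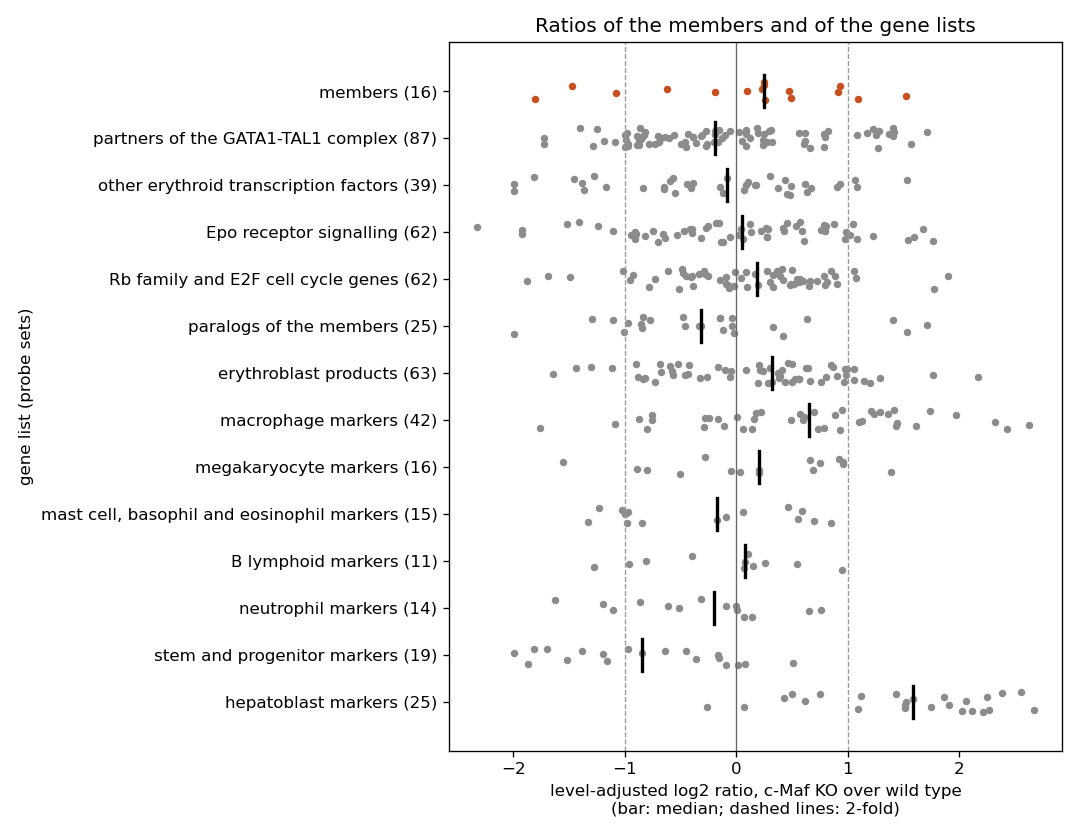
Level-adjusted log2 ratio of c-Maf KO over wild type for each probe set above the floor on at least 1 array, for the 10 genes (top, 16 probe sets) and for 13 gene lists; bars are medians and dashed lines mark 2-fold. The members have a median of 0.25 and spread from -1.80 to 1.53, hepatoblast markers have a median of 1.59, and stem and progenitor markers one of -0.84.

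The direction of most members rested on how the arrays were brought to a common level. Gata1, Tal1 and Lmo2 were above 0 level-adjusted and when centred on probe sets of like signal, but below 0 as deposited, with equal medians (-0.25, -0.25 and -0.30), with ratios centred on the median probe set (-0.05, -0.05 and -0.11) and with the hybridisation controls as reference (-1.16, -1.16 and -1.21). Rb1 was above 0 in 6 of 9 settings. The settings that change only the floor or use a pseudocount share the quantile-normalized values with the level-adjusted ratio. The deposited scale, the hybridisation controls, equal medians and centred ratios differ only by a constant for probe sets above the floor on both arrays. The 9 settings are thus not independent, and a shared sign over all 9 rests on fewer distinct treatments. Klf1 was above 0 in all 9 settings, from 0.12 with the hybridisation controls to 1.53. The Bcl11a probe sets 1447334_at, 1447335_x_at and 1456632_at were below 0 in all 9, and Gfi1b too, from -1.30 to -0.13. Epor was above 0 in 7 of 9, as was Ldb1, with the exceptions being the deposited scale and the hybridisation controls.

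**Figure D4:**
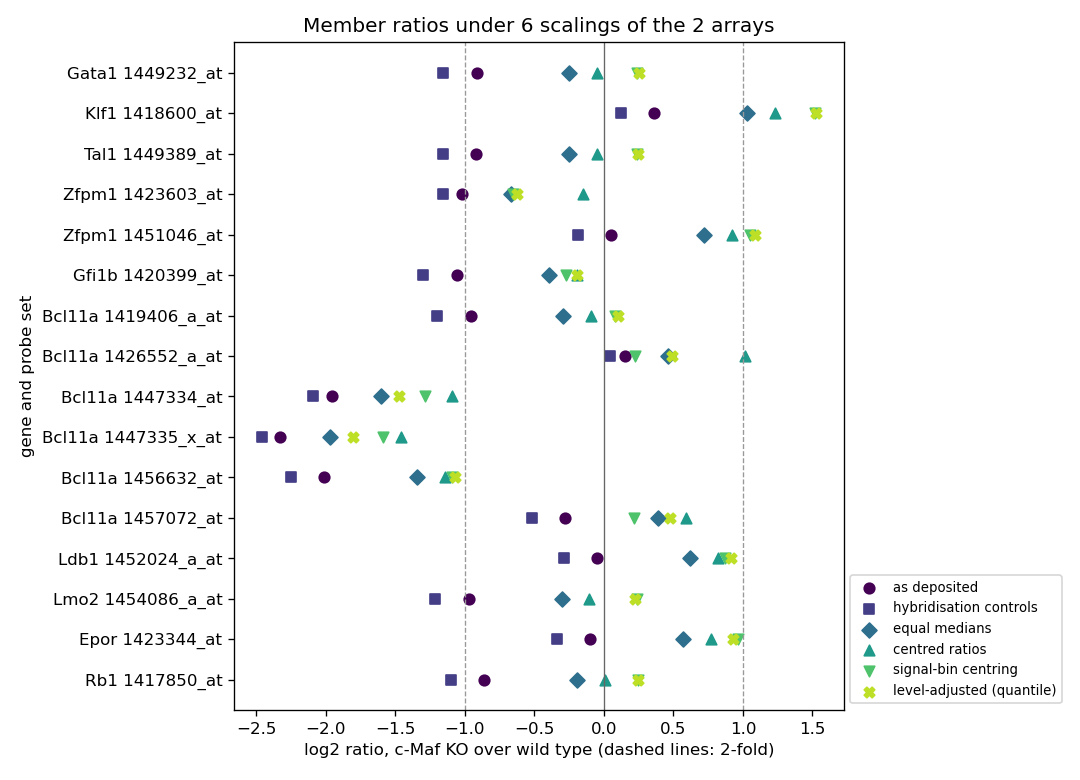
Log2 ratio of c-Maf KO over wild type for the 16 member probe sets above the floor on at least 1 array under 6 scalings of the 2 arrays (symbols); dashed lines mark 2-fold. Klf1 lies to the right of 0 under each scaling, 3 Bcl11a probe sets lie to the left of -1, and Gata1, Tal1, Lmo2 and Rb1 run from -1.21 to 0.25.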

How the data were processed

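The authors deposited 1 linear intensity for each of 45101 probe sets on each of 2 arrays; per the labels' protocols, biotin-labelled RNA was hybridised after the manufacturer's manual. Their summarisation, scaling and filtering are not given in the sources used here. Of the probe sets, 64 were controls, 34945 named 1 gene in the platform annotation, 932 several and 9160 none in the table used here; 34741 were matched through Entrez identifiers to GRCm38.p6 symbols. With python 3.11.15, numpy 2.4.6 and pandas 2.3.3, log2 intensities were quantile normalized, values were floored at the 50th percentile and knockout was divided by wild type; 22608 probe sets that reached the floor on 1 or both arrays were counted past 2-fold. The procedure was tested on simulated data, with changes planted only in bright probe sets and little added noise. Most member probe sets are dimmer, so this test says little about them. The members, the 13 gene lists and the scaling were chosen with earlier results of these data known. Besides the members, Maf, Jak2, Stat5a and Stat5b, each list names at most 4 genes, those with the largest absolute ratio of the brightest probe set; Adgre1 and Itgam were added as the sort antigens. With 1 array per genotype, precision is limited by the number of arrays. In all, 11 alternatives were tried.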

Additional observations from a re-analysis of the deposited data

How the results depend on the processing

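The count of member probe sets at least 2-fold lower (3) was 5 as deposited, 10 with the hybridisation controls as reference and 1 at a 3-fold threshold. The count at least 2-fold higher (2) was 0 as deposited, 0 with the hybridisation controls, 1 with equal medians, 1 with a pseudocount and no floor, 4 at 1.5-fold and 0 at 3-fold. Under the remaining alternatives both counts lay within 1.5 times the main ones. The median (0.25) was -0.92 as deposited and -1.16 with the hybridisation controls. The brighter Zfpm1 probe set turned from 1.09 to -0.19 with the hybridisation controls. These scalings differ in the overall shift they leave in the ratios: the median over all probe sets was -0.72 as deposited, -0.91 with the hybridisation controls, -0.18 with equal medians, 0.15 with centred ratios and -0.14 with signal-bin centring, against 0.02. The share of all probe sets at least 2-fold lower was 36.6% as deposited, 45.6% with the hybridisation controls and 14.9% with equal medians. The share higher was 1.27%, 0.77% and 5.03%. With centred ratios 8.16% were lower and 12.9% higher, and with a pseudocount 8.61% and 8.13%. At 1.5-fold 20.7% of all probe sets were lower and 21.4% higher, and at 3-fold 2.09% and 1.65%. Of 126 single member ratios under the alternatives, 97 moved by less than the SD of 0.69 between probe sets of a gene, 25 moved down and 3 up by more, and 1 turned. That SD came from bright probe sets only, and dimmer members were set against it too. Of 117 list medians, 94 moved by less than that SD and 23 moved down. Of 286 list counts, 143 stayed within 1.5 times, 75 were larger and 68 smaller. No paired analysis was possible because each genotype has 1 array, and no replicate could be left out.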
